A study of Mus musculus with 8 samples.

Results

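The genes of 9 myeloid surface receptors and of the adaptor that some of them share were followed in bone marrow-derived macrophages (BMDM) given sphingosine d18:1, written So(d18:1). The 10 genes were taken by name, out of 55357 genes in the count table, as the TREM family (*Trem1*, *Trem2* and *Trem3*), the adaptor gene *Tyrobp*, and the receptors *Sirpa*, *Pirb*, *Lilrb4a*, *Cd300a*, *Cd300lb* and *Siglec1*. The cells came from wild-type C57BL/6J mice and were grown from marrow of the femur and tibia with M-CSF, the growth factor of macrophages. The treated group was 4 samples that received 2 μM So(d18:1) for 6 h, and the control group was 4 samples that received methanol, the solvent, for 6 h. The labels name no inflammatory stimulus, whereas the text of the study places these cells under inflammatory stimulation. The labels do not say whether the 4 samples of a group came from separate mice, so the p-values measure only the spread between these samples.

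Macrophages tune their responses with receptors that come in activating and inhibitory forms. Activating receptors such as TREM1, TREM2, TREM3 and CD300LB have short tails and signal through DAP12, the product of *Tyrobp*, which carries an ITAM motif that recruits the kinase SYK. Inhibitory receptors such as SIRPα, PIR-B, LILRB4A and CD300A carry ITIM motifs in their own tails, which recruit the phosphatases SHP-1 and SHP-2. SIGLEC1, also called CD169 or sialoadhesin, is an adhesion receptor for sialic acid on macrophages and has no ITIM. The comparison asks which of these genes differed in mRNA level between So(d18:1) and control cells.

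Between 17748397 and 26088609 reads per library were counted on genes. All 10 genes had enough counts to be tested, among 14514 genes in all, by edgeR's quasi-likelihood test with Benjamini-Hochberg adjustment over all tested genes. Levels are given as CPM, counts scaled to a common library size (per 1e6 reads, TMM). Means carry ± their SD over the 4 libraries of a group, log2FC is the log2 fold change of So(d18:1) over control with its standard error (SE), and the adjusted p-values are those of edgeR. The 8 macrophage markers examined were all well counted, at a summed level of 30650 to 32994 CPM in control, against 26524 to 31476 CPM with So(d18:1). Most of this sum was *Lyz2*. Of the 8, *Mertk* (log2FC -0.38, SE 0.043, adjusted p = 6.2e-06) and *Cd68* (log2FC -0.22, SE 0.045, adjusted p = 0.00349) passed as lower and *Itgam* (log2FC 0.18, SE 0.045, adjusted p = 0.0119) as higher. T and NK cell markers were each under 1 CPM in every library. Markers of neutrophils were present, at a summed level of 1700 to 2345 CPM in control, against 1339 to 1519 CPM with So(d18:1). All 10 of them had a negative log2 fold change, 5 passed the test as lower, and none was at 0 counts in all libraries. The 6 monocyte markers summed to 3304 to 3549 CPM in control, against 2756 to 2943 CPM with So(d18:1), and 4 of them passed as lower. In such bulk samples, fewer cells of a type and less RNA per cell cannot be told apart.

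With So(d18:1), 4 of the 10 genes fell and none rose. *Siglec1* fell by 22.6%, *Sirpa* by 15.9%, *Lilrb4a* by 12.7% and *Trem2* by 12.7%. Of all tested genes, 8.94% passed the same test, 5.07% as lower and 3.87% as higher. Many well counted genes passed, and among the 543 genes with a mean of at least 300 CPM the share was 23.6%, with 14.7% lower. Of the 10 genes, 8 lie above that level, all but *Trem1* and *Trem3*, and 4 of these 8 passed. Without adjustment for the number of genes, 6 of the 10 had p under 0.05 as lower and 1 as higher. Of the 14514 tested genes, 1734 were lower and 1659 higher by that limit. None of the 10 genes was called higher by DESeq2 or limma-voom either. The median log2FC was -0.16 over the 10 genes and 0.0036 over all tested genes. None of the 10 changed by 1.5-fold or more, the limit in the methods of the study, which 3.89% of all tested genes passed with an unadjusted p under 0.05 (2.48% lower, 1.41% higher).

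**Figure D1:**
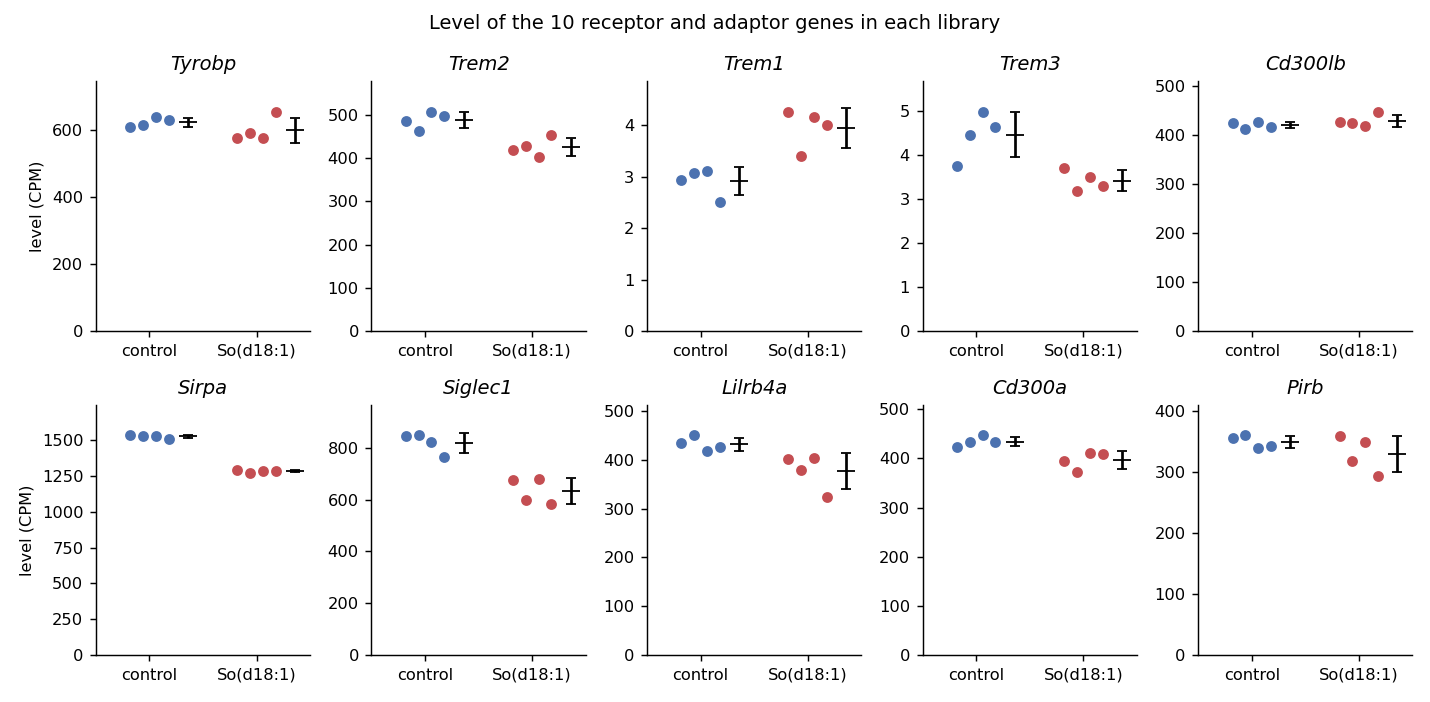
Level in CPM of the 10 genes in each of 4 control (blue) and 4 So(d18:1) (red) libraries, with black bars for the mean and SD (n = 4) and every axis starting at 0. The 4 *Sirpa* values of the So(d18:1) group lie between 1273 and 1293 CPM, below all control values, and *Tyrobp*, *Cd300lb* and *Pirb* overlap between the groups.

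The groups did not overlap for 7 of the 10 genes, of which 6 were lower and 1 was higher with So(d18:1). Among all tested genes, 15.0% did not overlap, 7.87% as lower and 7.14% as higher. The 10 genes together held 0.501% to 0.512% of all counts in control and 0.440% to 0.458% in So(d18:1) libraries, for which no test was made. The genes with the highest CPM weigh most in these shares. They were *Sirpa*, which went from 1526 to 1283 CPM on average, and *Siglec1*, from 820 to 635 CPM.

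*Tyrobp*, the adaptor gene (ENSMUSG00000030579, chromosome 7 from 30413760 to 30417585, GRCm38, the build called mm10) was counted at 609, 614, 639 and 629 CPM in control replicates 1 to 4 and at 577, 590, 577 and 654 CPM in So(d18:1) replicates 1 to 4. So(d18:1) replicate 4 was above every control library and the other 3 were below every control library, so the groups overlapped. The log2FC was -0.054 (SE 0.046) and did not pass (adjusted p = 0.521). An exact permutation test of the CPM, which with 4 against 4 libraries cannot give a two-sided p under 0.0286, gave p = 0.286.

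*Trem2* encodes a receptor for lipids, lipoproteins and dying cells and is the best known partner of DAP12 in tissue macrophages and microglia. It lies on chromosome 17 from 48346401 to 48354147 (ENSMUSG00000023992). Its level was 486, 463, 507 and 497 CPM in the control libraries and 419, 429, 404 and 454 CPM in the So(d18:1) libraries. The highest So(d18:1) value, that of replicate 4, stood below the lowest control value. *Trem2* fell (log2FC -0.20, SE 0.045, adjusted p = 0.00871), and with each library left out in turn its adjusted p stayed between 0.00326 and 0.0404. Set against its adaptor in the same library and per length of gene, *Trem2* stood at 0.108, 0.102, 0.107 and 0.107 of *Tyrobp* in control and at 0.0981, 0.0982, 0.0944 and 0.0935 in So(d18:1) libraries. These ratios did not overlap either. They belong to 11 ratios between genes that were chosen after the values were seen, of which 6 did not overlap. By an exact permutation test adjusted over the 11 ratios, none passed (adjusted p of at least 0.0524). All 6 had the smallest unadjusted p that this test can give with 4 against 4 libraries, 0.0286. With 6 of 11 ratios at that floor no adjusted p could be under 0.05, so the test cannot decide. The lack of overlap of a ratio is therefore given as a description only.

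*Trem1*, which amplifies inflammatory responses of neutrophils and monocytes, lies in the same cluster on chromosome 17 from 48232768 to 48246924 (ENSMUSG00000042265). It was counted on only 61 to 77 reads per control library and 75 to 103 reads per So(d18:1) library. In CPM these were 2.93, 3.06, 3.12 and 2.52 in control and 4.26, 3.39, 4.17 and 4.0 in So(d18:1) libraries. Each So(d18:1) value was above each control value. The log2FC of 0.44 (SE 0.15) was the only clearly positive value among the 10 genes and did not pass adjustment over all genes (unadjusted p = 0.00882, adjusted p = 0.0777).

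*Trem3*, another DAP12 partner, begins 852 bases after the end of *Trem1*, on chromosome 17 from 48247777 to 48258841 (ENSMUSG00000041754). Its values were 3.75, 4.46, 4.97 and 4.62 CPM in control, against 3.70, 3.17, 3.49 and 3.30 CPM with So(d18:1), on 66 to 118 reads. Every So(d18:1) library was below every control library, by a narrow gap between control replicate 1 and So(d18:1) replicate 1. The log2FC of -0.39 (SE 0.14) did not pass (adjusted p = 0.0963). These neighbours, *Trem1* and *Trem3*, therefore had fold changes of opposite sign. Per length of gene, *Trem1* stood at 0.259, 0.228, 0.208 and 0.181 of *Trem3* in control and at 0.382, 0.355, 0.396 and 0.402 in So(d18:1) libraries. That these ratios did not overlap follows from the values of both genes given above and adds nothing to them. For both genes the spread between libraries was about that of counting, with a coefficient of variation of 9.36% for *Trem1* and 11.5% for *Trem3* in control, where counting error alone gives 12.2% and 9.86%. Neutrophil markers fell over the same libraries, and their part in the values of *Trem1* and *Trem3* was not tested.

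The stretches before the start sites of *Trem1* and *Trem2* are shown because these cluster genes had fold changes of opposite sign, although that of *Trem1* did not pass. The sequences are from RefSeq (GRCm38.p6), which held a promoter for 5 of the 10 genes. Each runs 5′ to 3′ over the 250 bases before the start site, on the + strand, at chr17:48232489-48232738 for *Trem1* and chr17:48346151-48346400 for *Trem2*. Capitals mark GAGGAA, the core that the myeloid factor PU.1 binds, or its reverse complement, and GCGTG, a core of hypoxia response elements, or its reverse complement.
Trem1: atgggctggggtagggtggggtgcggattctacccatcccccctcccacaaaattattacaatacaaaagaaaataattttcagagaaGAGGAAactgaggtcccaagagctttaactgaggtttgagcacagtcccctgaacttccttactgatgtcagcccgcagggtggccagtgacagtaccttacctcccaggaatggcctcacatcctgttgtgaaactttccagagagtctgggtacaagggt
Trem2: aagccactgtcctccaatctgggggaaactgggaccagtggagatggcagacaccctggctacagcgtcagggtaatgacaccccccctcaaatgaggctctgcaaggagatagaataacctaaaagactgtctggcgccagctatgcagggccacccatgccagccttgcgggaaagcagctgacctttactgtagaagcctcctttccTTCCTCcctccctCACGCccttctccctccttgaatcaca
GAGGAA began 162 bases before the start of *Trem1* and 40 bases before that of *Trem2*, and it occurs on either strand in 23.3% of the 32851 promoters in the same table. The hypoxia cores ACGTG and GCGTG, searched on both strands, are found in 38.6% of promoters. *Trem2* held GCGTG once, 27 bases before its start, and *Trem1* held neither. Of the other promoters in the table, *Pirb* held GAGGAA at 3 places, *Cd300a* held it once and *Cd300lb* held GCGTG once. These matches describe the letters only.

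*Cd300lb* encodes an activating receptor of the CD300 family that also uses DAP12. It lies on chromosome 11 from 114922781 to 114934386 (ENSMUSG00000063193). The control libraries held 425, 412, 426 and 417 CPM and the So(d18:1) libraries 426, 425, 419 and 448 CPM. The groups overlapped, and the log2FC of 0.032 had an SE of 0.040 (adjusted p = 0.685). Among the 10 genes, *Cd300lb* and *Tyrobp* had the values nearest to 0.

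Its inhibitory counterpart *Cd300a*, a receptor for phosphatidylserine and phosphatidylethanolamine, lies 18126 bases away on the same chromosome, from 114890041 to 114904654 (ENSMUSG00000034652). The level of *Cd300a* was 423, 433, 447 and 434 CPM in control, against 395, 372, 411 and 410 CPM with So(d18:1). The groups did not overlap. The log2FC of -0.13 (SE 0.043) did not pass (adjusted p = 0.0656), although it did by DESeq2 (adjusted p = 0.0313). Within each library, *Cd300a* stood at 0.613, 0.647, 0.646 and 0.641 of *Cd300lb* per length in control and at 0.571, 0.538, 0.604 and 0.564 in So(d18:1) libraries, again without overlap.

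*Sirpa* encodes SIRPα, which binds CD47 on other cells and holds back phagocytosis. It lies on chromosome 2 from 129592835 to 129632228 (ENSMUSG00000037902). The control libraries were counted at 1533, 1532, 1528 and 1509 CPM and the So(d18:1) libraries at 1293, 1273, 1282 and 1282 CPM. The libraries of each group lay very close together, with a coefficient of variation of 0.719% in control and 0.639% in So(d18:1) libraries, where counting alone gives 0.530% and 0.611%. *Sirpa* fell (log2FC -0.25, SE 0.039, adjusted p = 2.1e-04). With each library left out its log2FC stayed at -0.25 to 2 decimals, and its adjusted p was at most 0.00172.

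The activating relatives of *Sirpa*, the genes *Sirpb1a*, *Sirpb1b* and *Sirpb1c*, were counted at 15.0 ± 1.45, 12.7 ± 1.68 and 28.1 ± 2.93 CPM in control. Their log2 fold changes were -0.036, -0.037 and -0.023 (adjusted p from 0.867 to 0.891), and the sign changed with single libraries left out. These 3 genes share 40.4% to 58.0% of their 50-base words with other genes, mostly with each other, so their counts are uncertain. Per length, *Sirpa* stood at 15.6 to 18.6 times the sum of the 3 genes in control and at 13.6 to 14.9 times in So(d18:1) libraries. *Cd47*, the ligand, was at 280 ± 17.7 CPM in control, against 297 ± 6.37 CPM with So(d18:1) (log2FC 0.085, SE 0.046, adjusted p = 0.281). *Thbs1* encodes thrombospondin, a secreted ligand of CD47. It rose from 4188 ± 59.8 to 5806 ± 277 CPM (log2FC 0.47, SE 0.044, adjusted p = 3.7e-07). *Thbs1* was the only one of the 7 tested SIRP relatives, ligands and adaptors to pass (14.3%, against 8.94% of all tested genes).

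*Siglec1* lies on chromosome 2 from 131069220 to 131086765 (ENSMUSG00000027322). Its level was 845, 848, 822 and 764 CPM in control, against 677, 599, 680 and 583 CPM with So(d18:1). The lowest control library stood above the highest So(d18:1) library, and in the treated group replicates 1 and 3 were higher than replicates 2 and 4. It fell (log2FC -0.37, SE 0.053, adjusted p = 1.1e-04), and its log2FC ranged from -0.40 to -0.33 with each library left out. Among the 10 genes, this was the largest fall that passed.

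The other Siglecs, which bind sialic acid and mostly carry ITIMs, also had negative log2 fold changes. Of the 7 tested relatives, 4 fell, none rose (57.1% passed, against 8.94% of all tested genes) and the median log2FC was -0.68. *Siglece*, an inhibitory receptor of myeloid cells, fell from 17.2 ± 1.34 to 10.6 ± 0.960 CPM (log2FC -0.70, SE 0.092, adjusted p = 2.8e-05). *Siglecg* fell from 2.93 ± 0.419 to 1.59 ± 0.522 CPM, *Cd22* from 11.1 ± 1.77 to 6.72 ± 1.30 CPM and *Siglecf* from 2.91 ± 0.716 to 1.81 ± 0.216 CPM. *Siglecf* lost its call with any single library left out except control replicate 2, and *Siglecg* lost it without So(d18:1) replicate 4 (adjusted p = 0.0530), so that only 2 of the 4 calls held there. *Cd33*, better counted, was at 87.6 ± 12.4 and 84.9 ± 3.15 CPM and did not pass (adjusted p = 0.810). *Cd22* and *Siglecg* are known from B cells, whose 6 markers summed to 16.8 to 20.0 CPM in control, against 13.7 to 17.6 CPM with So(d18:1). All 6 had a negative log2 fold change and 1 of them passed, and their part in the fall of *Cd22* and *Siglecg* was not tested.

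*Lilrb4a*, the inhibitory receptor also known as gp49B, lies on chromosome 10 from 51490956 to 51496611 (ENSMUSG00000112148). It was at 435, 450, 418 and 426 CPM in control, against 402, 380, 404 and 323 CPM with So(d18:1). The groups did not overlap, with So(d18:1) replicate 4 well below the other 3. *Lilrb4a* fell with a log2FC of -0.20 (SE 0.059), close to the threshold (adjusted p = 0.0457). The call was lost in 6 of the 8 fits with a library left out. It was lost without each control replicate (adjusted p = 0.102, 0.103, 0.0660 and 0.0935 for replicates 1 to 4), without So(d18:1) replicate 2 (0.0995) and without So(d18:1) replicate 4 (0.0899, log2 fold change -0.13).

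The neighbour *Lilr4b*, called gp49A and 4252 bases from *Lilrb4a*, is activating in form and nearly identical. It fell from 410 ± 10.2 to 340 ± 29.7 CPM (log2FC -0.27, SE 0.053, adjusted p = 0.00236). Their coding sequences were 96.04% identical over 910 aligned bases. Of the 50-base words of *Lilrb4a* transcripts, 47.2% occur in other genes, led by Gm49339 with 33.7%. For *Lilr4b* 24.55% do, led by *Lilrb4a* with 24.1%. An exon of *Lilrb4a* also overlaps Gm49339 on its own strand, counted on 1 to 5 reads, and Gm40645 on the other strand, counted on 6 to 36 reads. The counts of both genes are therefore uncertain by reads that match either. The first 120 coding bases of each are shown, from GENCODE M21 transcripts (GRCm38, + strand), with the 2 positions that differ in capitals, to show how little tells the pair apart.
Lilrb4a: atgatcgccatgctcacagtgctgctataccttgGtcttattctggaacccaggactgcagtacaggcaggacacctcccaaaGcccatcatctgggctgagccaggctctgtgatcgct
Lilr4b: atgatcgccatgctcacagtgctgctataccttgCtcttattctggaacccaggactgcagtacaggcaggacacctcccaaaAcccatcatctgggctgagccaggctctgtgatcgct
Per length, *Lilrb4a* stood at 1.03 to 1.13 times *Lilr4b* in control and at 1.13 to 1.16 times in So(d18:1) libraries, and these ratios overlapped.

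*Pirb*, an inhibitory receptor for MHC class I, lies on chromosome 7 from 3711409 to 3720391 (ENSMUSG00000058818). Its level was 356, 360, 340 and 343 CPM in control, against 359, 317, 349 and 294 CPM with So(d18:1). The groups overlapped, with So(d18:1) replicates 1 and 3 within the control range and replicates 2 and 4 below it. The log2FC of -0.084 (SE 0.054) did not pass (adjusted p = 0.374). Its transcripts share 34.0% of their 50-base words with other genes, led by Gm14548 with 17.7%, so its count is uncertain by reads that match several genes. In control, the genes it shares words with were counted at 2.2 ± 0.493 CPM for Gm14548, 3.65 ± 0.425 CPM for *Pira2* and, highest among them, 19.9 ± 0.407 CPM for Gm15922. Of the 5 tested PIR and LILR relatives, 2 fell and none rose (40% passed, against 8.94% of all tested genes). These were *Lilr4b* and *Lair1*, an inhibitory receptor for collagen, which fell from 28.3 ± 1.25 to 18.8 ± 1.23 CPM (log2FC -0.59, SE 0.069, adjusted p = 7.9e-06).

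**Figure D2:**
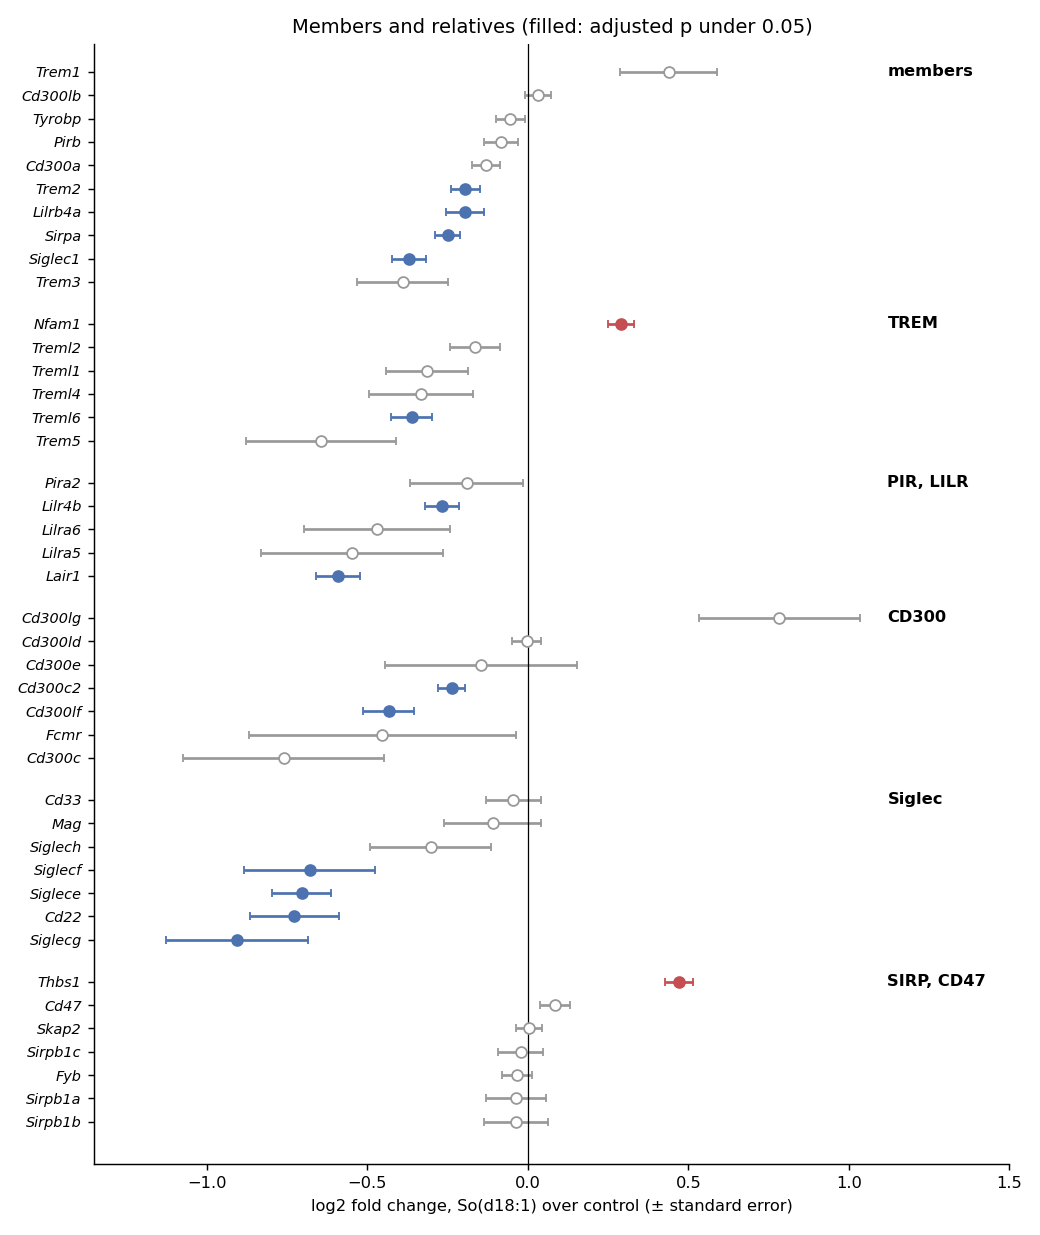
Log2 fold change of So(d18:1) over control, with its SE, for the 10 genes (members) and the tested genes of 5 families, with filled points for an adjusted p under 0.05 (edgeR). Treml6 and Trem5 are older names of B430306N03Rik and 9830107B12Rik, and among the tested Siglec relatives the 4 filled points lie between -0.91 and -0.68.

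Other genes of the TREM list were poorly counted with few exceptions. Of 6 tested, 1 fell and 1 rose (33.3% passed, against 8.94% of all tested genes). The cluster gene B430306N03Rik, also named *Treml6*, fell from 85.7 ± 9.79 to 66.8 ± 1.26 CPM (log2FC -0.36, SE 0.064, adjusted p = 0.00123). *Nfam1*, an ITAM receptor that lies on chromosome 15 outside the cluster, rose from 581 ± 18.0 to 710 ± 17.6 CPM (log2FC 0.29, SE 0.041, adjusted p = 7.7e-05). *Treml1*, *Treml2* and *Treml4* were at 9.38, 22.6 and 4.14 CPM in control on average, with log2FC of -0.31, -0.17 and -0.33 that did not pass (adjusted p from 0.138 to 0.219).

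Of the 7 tested relatives of the CD300 list, 2 fell and none rose (28.6% passed, against 8.94% of all tested genes). *Cd300c2*, an activating receptor near *Cd300a*, fell from 228 ± 7.22 to 193 ± 7.68 CPM (log2FC -0.24, SE 0.043, adjusted p = 0.00111). *Cd300lf*, an inhibitory member, fell from 33.7 ± 1.60 to 25.1 ± 3.36 CPM (log2FC -0.43, SE 0.080, adjusted p = 0.00144). *Cd300ld* was at 236 ± 14.3 and 235 ± 4.96 CPM, with a log2FC of -0.0041 (SE 0.046). *Cd300lg*, on 23 to 90 reads, had a log2FC of 0.78 (SE 0.25) and did not pass (adjusted p = 0.0568), although its groups did not overlap. In the other direction, *Cd300c*, on 12 to 61 reads, had a log2FC of -0.76 (SE 0.31). It did not pass either (adjusted p = 0.144), and its groups overlapped.

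**Figure D3:**
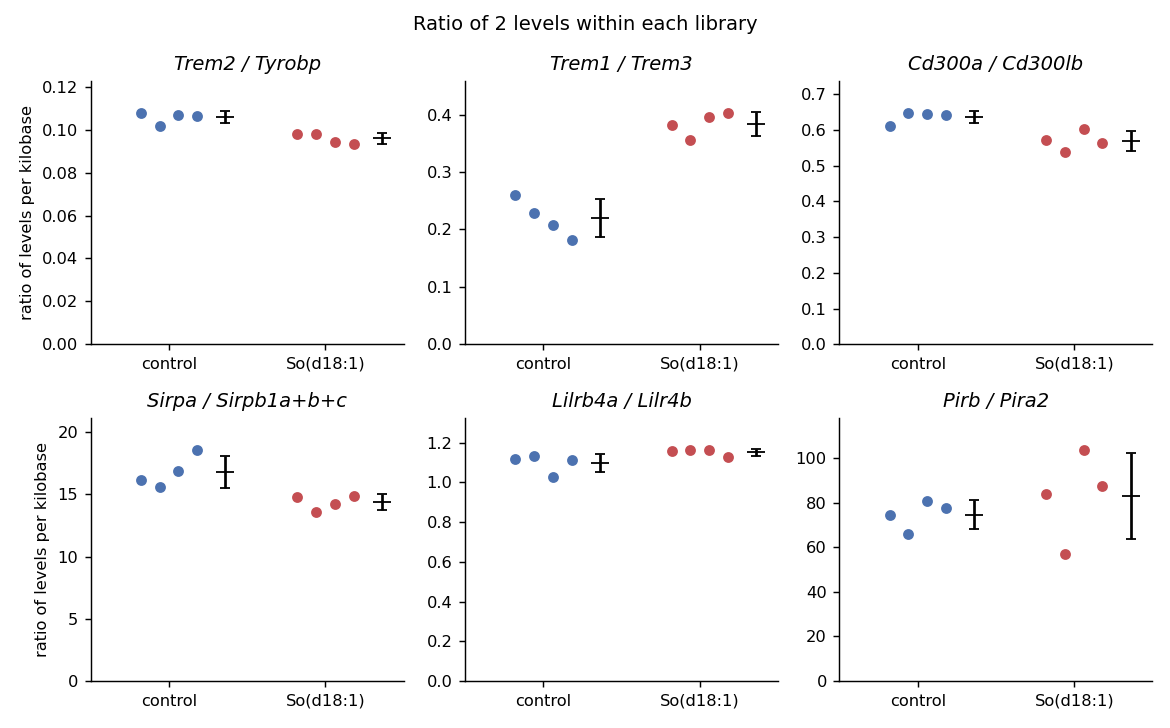
Ratio of the levels per kilobase of 2 genes (or of *Sirpa* to the sum of 3 *Sirpb1* genes) within each control (blue) and So(d18:1) (red) library, with the mean and SD (n = 4) in black and axes starting at 0. *Trem2* over *Tyrobp* was 0.106 ± 0.00279 in control and 0.0960 ± 0.00245 in So(d18:1) libraries, and *Pirb* over *Pira2* overlapped between the groups.

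Per kilobase of exon, the order of the levels in control libraries was *Tyrobp* at 933 CPM per kilobase, *Sirpa* at 311, *Cd300lb* at 144, *Siglec1* at 115, *Trem2* at 98.8, *Cd300a* at 91.7, *Lilrb4a* at 82.7, *Pirb* at 78.2, *Trem3* at 4.48 and *Trem1* at 0.971. Neighbours in this order overlapped between libraries only for *Trem2* with *Cd300a* and for *Lilrb4a* with *Pirb*. The adaptor thus stood above every receptor in all libraries of both groups. In So(d18:1) libraries the levels of *Siglec1*, *Trem2*, *Cd300a*, *Pirb* and *Lilrb4a*, from 88.8 down to 72.2 CPM per kilobase, each overlapped the next. *Siglec1* was above *Trem2* in 4 of 4 control libraries and in 2 of 4 So(d18:1) libraries, and *Lilrb4a*, above *Pirb* in control, came after it in 3 of 4 So(d18:1) libraries.

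**Figure D4:**
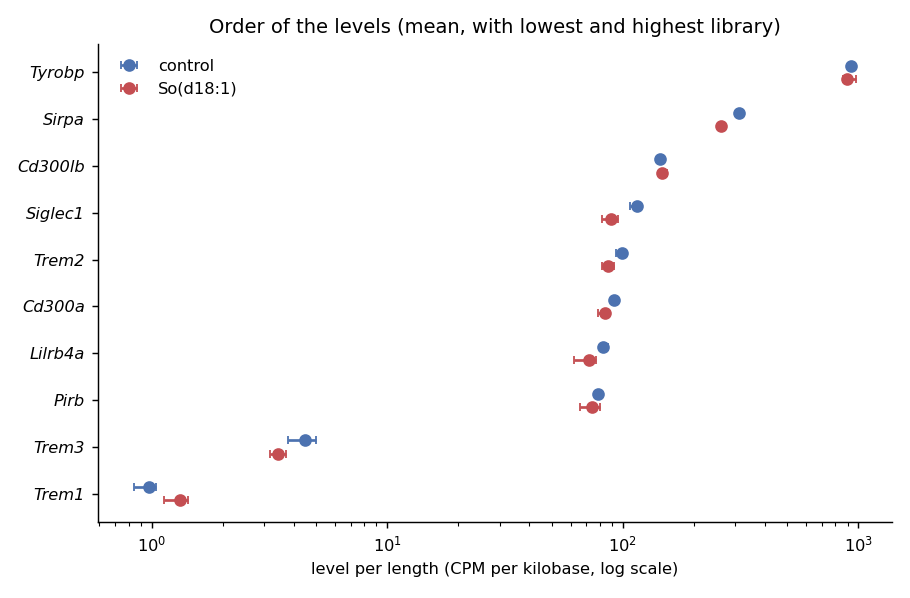
Mean level per length of the 10 genes in control (blue) and So(d18:1) (red) libraries in CPM per kilobase on a log axis, with bars from the lowest to the highest of 4 libraries. The 7 genes between *Sirpa* at 311 and *Pirb* at 78.2 CPM per kilobase in control are followed by *Trem3* at 4.48 and *Trem1* at 0.971.

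The So(d18:1) libraries differed more from each other than the control libraries for 8 of the 10 genes, all but *Trem3* and *Sirpa*. The coefficient of variation was 9.98% against 3.22% for *Lilrb4a*, 9.03% against 2.82% for *Pirb* and 6.17% against 2.2% for *Tyrobp*. Replicate 4 of the So(d18:1) group held the highest level of *Tyrobp*, *Trem2* and *Cd300lb* and the lowest of *Pirb*, *Lilrb4a* and *Siglec1* in that group. Without this library, the log2FC was -0.23 for *Trem2*, -0.099 for *Tyrobp*, -0.13 for *Lilrb4a* and -0.032 for *Pirb*, and *Trem2*, *Sirpa* and *Siglec1* still passed.

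Beyond the families, 18 other paired or inhibitory myeloid receptors were listed and 17 tested. Of these, 10 fell, 2 rose and 5 did not pass (70.6% passed, against 8.94% of all tested genes), with a median log2FC of -0.31. *Slamf7*, a receptor of the SLAM family, fell from 49.1 ± 3.74 to 27.8 ± 2.71 CPM (log2FC -0.82, SE 0.072, adjusted p = 1.8e-07). *Clec12a*, an ITIM receptor for uric acid crystals, fell from 241 ± 15.7 to 173 ± 8.86 CPM with a log2FC of -0.48, and *Ly9* fell with -0.38. The ITIM receptor *Pilra* fell with a log2FC of -0.43 (SE 0.072), as did *Clec4a2* with -0.26, although exons of *Pilra* overlap *Zcwpw1* on the other strand. *Vsir*, which encodes the checkpoint receptor VISTA, rose from 555 ± 5.74 to 648 ± 21.3 CPM (log2FC 0.22, SE 0.040, adjusted p = 0.00106).

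Among the signalling genes behind the receptors, of 24 ITAM adaptors and kinases, 6 fell, 1 rose and 17 did not pass, with a median of -0.072. The share that passed was 29.2%, against 8.94% of all tested genes and 23.6% of those with at least 300 CPM. The 7 genes that passed were all under 300 CPM, so the second share is not matched to their levels. *Blnk*, an adaptor downstream of SYK, fell from 77.7 ± 1.82 to 56.0 ± 3.01 CPM (log2FC -0.47, SE 0.050, adjusted p = 2.0e-06), *Lcp2*, the adaptor SLP-76, fell with -0.22 and the Src-family kinase *Lyn* with -0.19. *Clec5a*, another DAP12 partner, fell with -0.27 and the kinase *Fgr* with -0.32, which lost their calls with 6 and 5 of the 8 libraries left out. *Plcg2*, the phospholipase downstream of TREM2, rose from 143 ± 8.03 to 163 ± 1.63 CPM (log2FC 0.19, SE 0.045, adjusted p = 0.00956). *Syk* itself was at 641 ± 19.0 and 672 ± 4.33 CPM, with a log2FC of 0.069 that did not pass (adjusted p = 0.317). The 7 calls became 4 without control replicate 3, control replicate 4, So(d18:1) replicate 2 or So(d18:1) replicate 3.

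Of 16 ITIM phosphatases and other brakes, 4 fell and none rose by edgeR (unadjusted p under 0.05 for 5 as lower and 2 as higher), with a median of -0.035. Such an unadjusted p was found for 1734 of the 14514 tested genes as lower and for 1659 as higher. In this list 25% passed, against 8.94% of all tested genes and 23.6% of those with at least 300 CPM, a set not matched to the levels of the list. The phosphatases themselves, *Ptpn6* for SHP-1 and *Ptpn11* for SHP-2, had log2FC of -0.011 (SE 0.043) and 0.039 (SE 0.046). The genes that fell were *Lyn*, which phosphorylates both motifs and stands on both lists, *Ubash3b* with -0.37, *Sla* with -0.27 and *Dok2* with -0.27.

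**Figure D5:**
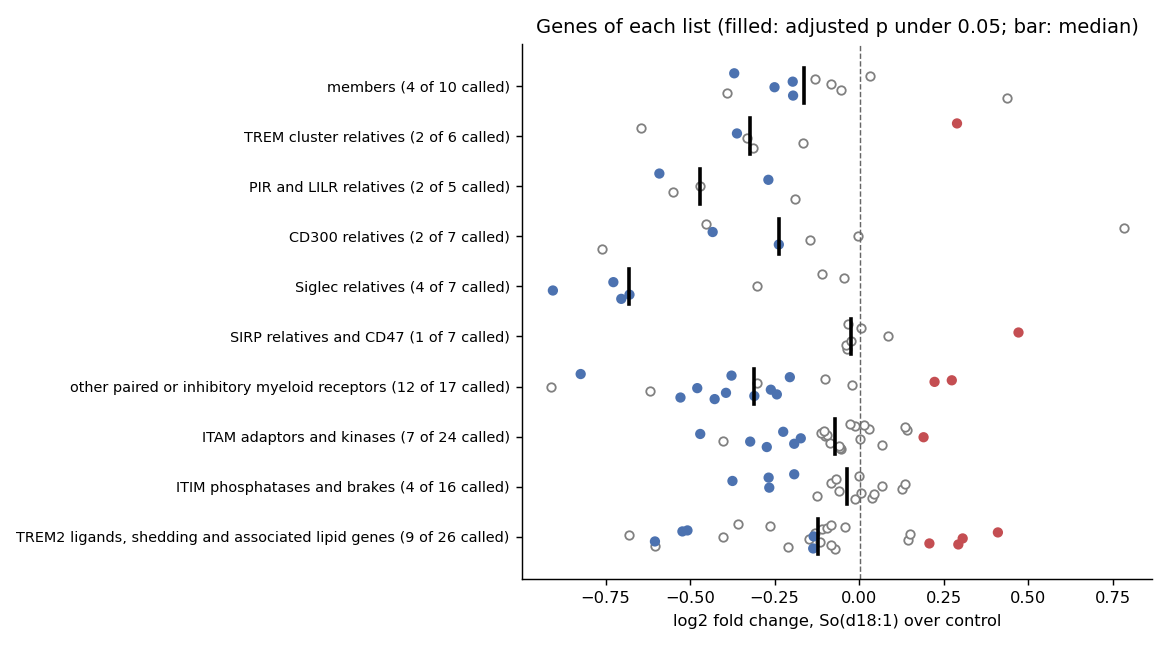
Log2 fold change of So(d18:1) over control for each tested gene of the 10 genes (members) and 9 lists of related genes, with filled points for an adjusted p under 0.05 (edgeR), a black bar for the median of each list and a dashed line for the median of all tested genes. The Siglec relatives have the lowest median, -0.68, and the ITIM phosphatases and brakes one of -0.035.

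Around TREM2, 26 genes of its ligands, shedding and associated lipid handling were listed, of which 5 fell, 4 rose and 17 did not pass, with a median of -0.12. Here 34.6% passed, against 8.94% of all tested genes and 23.6% of those with at least 300 CPM, a set not matched to the levels of the list. *Igf1*, a growth factor made by macrophages, fell from 507 ± 23.3 to 357 ± 11.9 CPM (log2FC -0.51, SE 0.044, adjusted p = 1.5e-07). *Lpl*, lipoprotein lipase, had a log2FC of -0.60 (SE 0.13, adjusted p = 0.0327) and lost its call with 5 of 8 single libraries left out. In the other direction, *Lgals3*, galectin-3, rose from 906 ± 67.7 to 1205 ± 43.8 CPM and *Gpnmb* from 4235 ± 200.3 to 5237 ± 89.0 CPM, with log2FC of 0.41 and 0.31. The membrane genes *Ms4a4a* and *Ms4a6d* rose with 0.29 and 0.21, and *Ms4a6d* lost its call when either control replicate 4 or So(d18:1) replicate 2 was left out, with an adjusted p of at most 0.0627. The genes of this list therefore moved both ways while *Trem2* fell. The 9 calls became 4 without control replicate 4 or So(d18:1) replicate 2 and 5 without So(d18:1) replicate 3 or 4.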

How the data were processed

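Poly(A) RNA of 8 BMDM samples (4 control, 4 So(d18:1)) was sequenced. Per the submitters' processing notes, Trim Galore 0.6.7, HISAT2 2.2.1, featureCounts 2.0.1 and the mm10 build were used, and the values deposited by the authors are whole-number counts per Ensembl gene, not normalized, beside the gene length. The strand setting and the handling of reads that match several genes are not given in the sources used here. Symbols were matched by GENCODE M21 (GRCm38) for 52081 of 55357 genes. Counts were filtered by filterByExpr, scaled by TMM and tested in R 4.3.3 with edgeR 4.0.16 (glmQLFit with robust dispersion, Benjamini-Hochberg adjustment, threshold 0.05), after a check on simulated data. In that check, 135 of 196 tested genes changed by 1.5-fold were called. Of its 149 calls, 14 were unchanged genes, more than the threshold allows on average. A log2FC divided by the square root of F, without its sign, gave the SE. Exact permutation tests ran over 70 divisions of the libraries. Alternatives were DESeq2 1.42.0, limma 3.58.1 (voom), other scalings and filters, a replicate block and each library left out. To find shared sequence, all 50-base words in the transcripts of a gene were looked up in those of other genes on both strands.

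The 10 genes and the lists of related genes were chosen with earlier results of these data known. The text names all 10 genes, some but not all of the tested genes of the 5 receptor family lists, and in other lists at most 6 genes with the smallest p among those that passed. *Syk*, *Ptpn6*, *Ptpn11*, the macrophage markers and the genes that share sequence with a member were named after their values were seen. Of 12 PIR and LILR names, 6 matched the table. The number of libraries, 4 in each group, limits the precision.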

Additional observations from a re-analysis of the deposited data

Results flagged for a closer look

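Dixon's ratio, the gap of an extreme library to its nearest neighbour over the range of its group, was examined in 126 groups of 4 libraries, for the 10 genes and 53 related genes. It passed the 95% critical value in 1 group, where chance gives about 6.3. This was *Cd300c2* in control libraries, with a ratio of 0.865. Control replicate 3 had a log2 CPM of 7.90, and the remaining control libraries lay between 7.80 and 7.82. None of the 10 genes was found in this way.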

How the results depend on the processing

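The calls of *Trem2*, *Sirpa* and *Siglec1* held under all 15 alternatives run for each gene, and the number of the 10 genes called was 3 to 5 over the other scalings, filters and tests and 3 to 4 with a library left out. *Lilrb4a* lost its call with library size alone (adjusted p = 0.0864, edgeR), and *Cd300a* gained one by DESeq2 and with the replicate block (adjusted p = 0.0484, edgeR). By an unadjusted p under 0.05 and a fold of at least 1.5, the counts of calls were 0 for the 10 genes, 564 for all tested genes (from 1298), 1 for the TREM relatives, 1 for the PIR and LILR relatives, 0 for the SIRP relatives, 3 for the other receptors, 0 for ITAM adaptors and kinases, 0 for ITIM phosphatases and 2 for the genes around TREM2. The counts stayed at 4 for the Siglec relatives and at 2 for the CD300 relatives. Those 2 CD300 genes were *Cd300c* (lower) and *Cd300lg* (higher), neither of which passed by adjusted p. This setting changes both the adjustment and the limit on fold, and their parts were not separated. With a library left out, the counts ranged from 815 (without So(d18:1) replicate 2) to 1370 for all genes, 2 to 4 for Siglec relatives, 4 to 8 for ITAM genes and 4 to 11 for genes around TREM2, and fewer samples enter these fits.

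Whether samples with the same replicate number were paired cannot be told from these data. The correlation of their deviations from the group means lay between -0.0035 and 0.10, which does not settle it. With the replicate block, 5 of the 10 genes, 1784 of all tested genes and 14 genes around TREM2 were called, against 4, 1298 and 9 without it. The cause was not tested.

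Signs changed for 8 genes, none of which passed the test. *Cd300ld* went to 0.0021 with library size alone, to 0.00019 with no filter and from -0.036 to 0.035 with a library left out, and *Skap2* to -0.0017 with at least 10 counts in every library and from -0.011 to 0.022. With a library left out the range was -0.35 to 0.022 for *Cd300e*, -0.12 to 0.022 for *Cd33*, -0.091 to 0.0098 for *Sirpb1a*, -0.12 to 0.037 for *Sirpb1b*, -0.059 to 0.054 for *Sirpb1c* and -0.065 to 0.0014 for *Fyb*. At 61 to 118 reads per library, counting error limits what can be said of *Trem1* and *Trem3*.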
